A study of Mus musculus with 15 samples.

Results

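Genes of the xenobiotic response, 10 in number, were followed in mouse ileal organoids given bile acids. They were the nuclear receptor genes Nr1i2 (PXR, the pregnane X receptor) and Nr1i3 (CAR, the constitutive androstane receptor) and 8 genes known as their drug-metabolism targets. The targets were the cytochrome P450 genes Cyp3a11, Cyp3a13, Cyp3a25, Cyp2b10 and Cyp2c55, the carboxylesterase genes Ces2a and Ces2c, and Abcb1a, a gene of the efflux pump P-glycoprotein. The genes were chosen by name, with earlier results of these data known. They are 10 of the 23420 gene symbols in the count files. All 10 were among the 13159 genes that passed the filter on low counts and were tested.

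The libraries came from primary organoids, epithelial cultures grown in Matrigel from crypts of the C57BL/6 ileum, at passage 2. They were passaged on day 10, and treatment began on day 14 and lasted 24 h in DMEM with 0.2% BSA, so vehicle libraries share the medium and the albumin. Vehicle, H10, H90, M10 and M90 each had 3 libraries (a, b and c). H10 and H90 received a bile acid mixture modelled on human bile with 10% or 90% of 12α-hydroxylated bile acids (12HBA), and M10 and M90 received a mixture modelled on mouse bile with the same shares. The labels give neither the composition nor the dose of the mixtures, so every difference is one between whole mixtures. Whether a, b and c of a group are separate mice or cultures is not stated either, so p-values measure the spread between these libraries, which may be technical.

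PXR and CAR are nuclear receptors that bind DNA as heterodimers with RXR and switch on genes of drug oxidation, conjugation and export, mainly in liver and intestine. PXR is activated by many drugs and by some bile acids, among them lithocholic acid. CAR is held in the cytoplasm until activated and is best known for inducing Cyp2b10 in mouse liver. The vitamin D receptor VDR, another sensor of lithocholic acid, can also act on Cyp3a genes in the intestine.

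On GRCm38 the receptor genes lie at chr16:38248323-38294824 on the minus strand (Nr1i2) and chr1:171213970-171220701 on the plus strand (Nr1i3). The 3 Cyp3a genes lie on chromosome 5, minus strand, at chr5:145854426-145879964 (Cyp3a11), chr5:145977194-146009618 (Cyp3a25) and chr5:137892932-137921619 (Cyp3a13). Abcb1a lies on the same chromosome at chr5:8660077-8748575 on the plus strand. Cyp2b10 lies at chr7:25897620-25926624, Cyp2c55 at chr19:39007019-39042693, Ces2a at chr8:104734003-104741634 and Ces2c at chr8:104847068-104854483, all on the plus strand. All 10 are annotated as protein coding.

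Nuclear receptor dimers are known to bind pairs of a hexamer, so the promoters were searched for AGGTCA or AGTTCA on both strands in windows from 250 bases before to 50 bases after the RefSeq transcript start (GRCm38.p6). A promoter was found for all 10 genes, and 4 of them held a hexamer, against 27.7% of 32851 promoters of that length. The 4 promoters below are shown because these genes moved in 3 ways: Cyp3a11 and Cyp3a13 rose by very different amounts from pool to pool, Cyp3a25 rose by a like amount in all, and Cyp2b10 fell. Capitals mark the hexamers, and the windows are chr5:145879805-145880104 (Cyp3a11, minus strand), chr5:146009569-146009868 (Cyp3a25, minus strand), chr5:137921570-137921869 (Cyp3a13, minus strand) and chr7:25897408-25897707 (Cyp2b10, plus strand).
Cyp3a11: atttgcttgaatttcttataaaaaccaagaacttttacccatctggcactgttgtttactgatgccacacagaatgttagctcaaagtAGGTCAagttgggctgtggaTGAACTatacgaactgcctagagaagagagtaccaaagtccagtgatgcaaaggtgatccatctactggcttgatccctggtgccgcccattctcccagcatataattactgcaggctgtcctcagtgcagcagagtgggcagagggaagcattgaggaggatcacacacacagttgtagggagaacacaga
Cyp3a25: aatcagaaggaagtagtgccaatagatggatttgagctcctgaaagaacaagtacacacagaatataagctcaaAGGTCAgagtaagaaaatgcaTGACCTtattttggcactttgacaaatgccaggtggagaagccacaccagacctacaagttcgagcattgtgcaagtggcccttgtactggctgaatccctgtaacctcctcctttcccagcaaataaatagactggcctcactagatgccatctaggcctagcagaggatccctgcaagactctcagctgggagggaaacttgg
Cyp3a13: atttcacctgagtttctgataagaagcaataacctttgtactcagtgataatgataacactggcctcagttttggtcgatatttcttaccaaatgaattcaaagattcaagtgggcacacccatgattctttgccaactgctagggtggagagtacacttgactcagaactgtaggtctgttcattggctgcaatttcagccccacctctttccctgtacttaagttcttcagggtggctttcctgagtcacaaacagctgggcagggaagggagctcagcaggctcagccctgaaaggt
Cyp2b10: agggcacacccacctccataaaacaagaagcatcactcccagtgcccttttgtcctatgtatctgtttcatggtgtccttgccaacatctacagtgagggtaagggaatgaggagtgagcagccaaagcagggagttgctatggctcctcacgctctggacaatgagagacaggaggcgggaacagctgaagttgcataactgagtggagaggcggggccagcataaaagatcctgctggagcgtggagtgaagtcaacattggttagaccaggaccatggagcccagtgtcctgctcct

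The Cyp3a11 window held AGGTCA at position -162 from the transcript start and TGAACT, the second hexamer on the other strand, at -142, with 14 bases between them. That RefSeq start lies 110 bases downstream of the Cyp3a11 gene start given above (the higher coordinate), and the RefSeq start of Cyp2b10 lies 38 bases downstream of its gene start. The Cyp3a25 window held AGGTCA at -176 and TGACCT at -155, with 15 bases between them. Abcb1a held a single hexamer at -176 of its RefSeq start, which lies 92986 bases upstream of the gene start given above, and Ces2a held one at -226, while Nr1i2, Nr1i3, Cyp3a13, Cyp2b10, Cyp2c55 and Ces2c held none in their windows. No window held a pair arranged as a direct repeat with a spacer of 3, 4 or 5 bases, an everted repeat with 6 or an inverted repeat with 1, arrangements present in 0.0122%, 0.0274%, 0.0396%, 0.00913% and 0.0152% of promoters. These are matches of letters in short windows and say nothing of binding, and distal enhancers were not searched.

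The 15 libraries held 11245807 to 28989526 counts. All 18 enterocyte markers on the list were detected in each group, while fibroblast markers summed to at most 15.2 CPM and immune and endothelial markers to at most 6.93 CPM (counts scaled to library totals after TMM). Liver transcripts split the libraries across groups: Mup20 ran from 21.6 to 36.3 CPM in 7 of them, which are all of vehicle and H10 together with H90 a (set 1). It ran from 0.339 to 0.603 CPM in H90 b, H90 c and all of M10 and M90, which make up the other 8 (set 2). For Alb the ranges of sets 1 and 2 were 86.5 to 139 and 34.4 to 62.6 CPM, and for Col1a1 they were 0 to 0.108 and 3.82 to 8.21 CPM. H10 minus vehicle and M90 minus M10 each lie within 1 set, whereas other comparisons cross the sets, which only H90 spans. In M10 minus vehicle, M90 minus vehicle and M10 minus H10 the groups lie wholly in different sets, so pool and set cannot be told apart. H90 a also stood apart in the ribosomal precursor Rn45s, with 13337 CPM where others had 1877 to 3061, and was the lowest H90 library for 8 of the 10 genes.

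Comparing each pool with vehicle asks how a bile acid mixture shifted the xenobiotic genes. In H10, in H90 and in M10, 8 of the 10 genes rose, and in M90 7 rose. Only Cyp2b10 fell, and it did so in all 4 pools. Nr1i3 passed in none (0 of 4 also at an unadjusted p under 0.05 and by DESeq2), and Cyp2c55 did not pass in M90. A change here is an adjusted p (Benjamini-Hochberg over all tested genes) under 0.05 in edgeR's quasi-likelihood test. For each of the 9, 9, 9 and 8 genes called the 3 treated libraries lay apart from the 3 vehicle libraries. How many of all tested genes lay apart was not counted, so this is not read as particular to these genes. Of all tested genes, 48.5% changed in H10 (24% higher, 24.5% lower), 21.6% in H90 (11.7% higher, 9.86% lower), 64.5% in M10 (31.2% higher, 33.3% lower) and 54.7% in M90 (26.2% higher, 28.5% lower). The median log2 change of the 10 genes was 0.95, 0.35, 1.18 and 0.84 in the order H10, H90, M10, M90, where the medians of all tested genes were -0.004, -0.009, -0.03 and -0.02. With library set as a term in the model, H90 minus vehicle compares H90 a alone with vehicle, because only H90 spans the sets. In that fit Cyp3a13, Cyp2c55, Ces2c and Cyp2b10 lost their H90 calls. For M10 and M90 minus vehicle the term is a shift taken from H90 a against H90 b and c, so it too depends on H90 a.

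**Figure D1:**
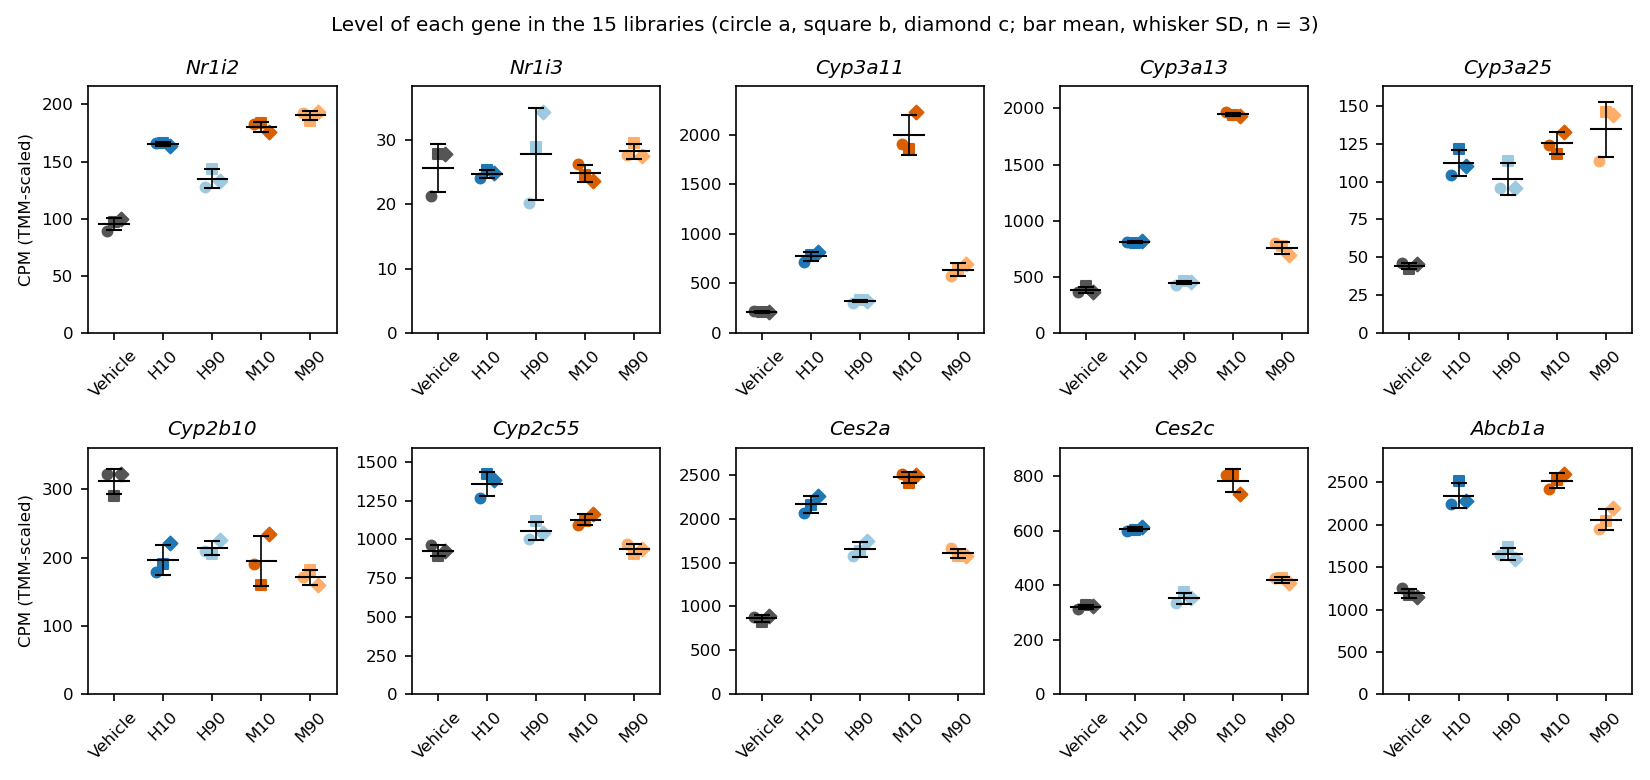
Level of each of the 10 genes in CPM (vertical axis, from 0, own scale for each gene) in the 15 libraries, by group. Points are libraries, bars are means and whiskers are SD (n = 3); 8 genes have their lowest mean in vehicle, Cyp2b10 has its highest there, and each pool overlaps vehicle for Nr1i3.

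**Figure D2:**
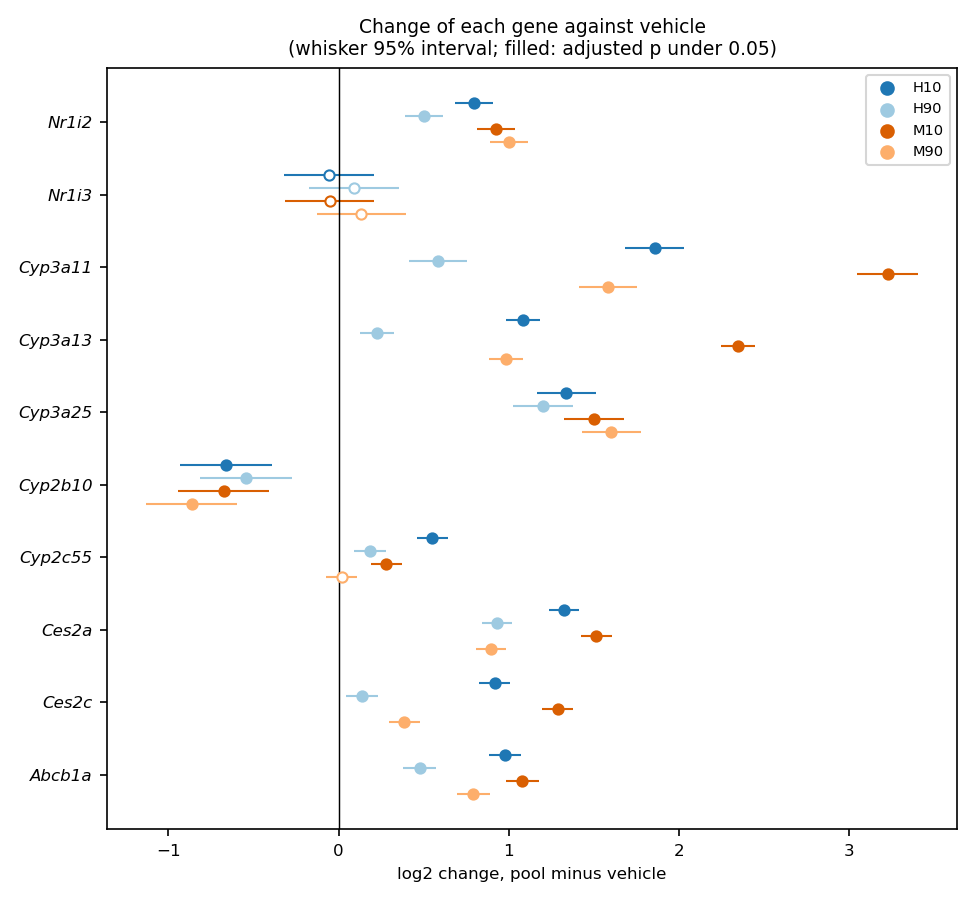
The log2 change of each gene in each pool against vehicle (horizontal axis), with 95% intervals as whiskers and filled points for adjusted p under 0.05. Cyp3a11 and Cyp3a13 spread widest, from 0.58 to 3.23 and from 0.23 to 2.35, while the 4 Cyp3a25 points lie between 1.2 and 1.60.

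The PXR gene itself rose in every pool. Nr1i2 had 89.0, 97.0 and 99.4 CPM in vehicle, 166, 166 and 163 CPM in H10 and 127, 144 and 133 CPM in H90. In M10 it had 183, 183 and 176 CPM, and in M90 193, 186 and 193 CPM. Each of the 12 treated libraries exceeded the highest vehicle library, with H90 between vehicle and the other pools. Relative to vehicle the gene was 1.74-fold higher in H10 (log2 0.79, SE 0.0547, adjusted p = 4.56e-15) and 1.41-fold in H90 (log2 0.50, SE 0.0552, adjusted p = 5.31e-09). It was 1.90-fold higher in M10 (log2 0.92, SE 0.0546, adjusted p = 2.08e-17) and 2.00-fold in M90 (log2 1.0, SE 0.0546, adjusted p = 4.61e-18).

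The CAR gene was low and passed the test in no pool. Nr1i3 had 21.3, 27.8 and 27.8 CPM in vehicle, 24.1, 25.3 and 24.9 CPM in H10 and 20.2, 29.0 and 34.3 CPM in H90. It had 26.2, 24.6 and 23.6 CPM in M10 and 27.7, 29.5 and 27.5 CPM in M90, and each pool's range overlapped that of vehicle. The log2 differences from vehicle were -0.06 (95% interval -0.32 to 0.21), 0.09 (-0.17 to 0.36), -0.05 (-0.32 to 0.21) and 0.13 (-0.13 to 0.39) in H10, H90, M10 and M90. With library set as a term, which depends on H90 a, its log2 was -0.69 in M10 and the signs in H90 and M90 turned. Of its 4414 exonic bases 3304 overlap exons of Tomm40l, a mitochondrial import gene on the opposite strand with means of 19.8 to 28.0 CPM. The strand setting of the counting is not given in the sources used here, so reads of the pair cannot be told apart. Tomm40l itself was lower in M10 than in vehicle (log2 -0.36, adjusted p = 0.00711) and passed in no other pool. It was higher in M90 than in M10 (log2 0.41, adjusted p = 0.00421).

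Among the P450 genes, Cyp3a11, the main drug-oxidising CYP3A enzyme of mouse and a classical PXR target, showed the widest range. It had 224, 206 and 210.1 CPM in vehicle, 715, 788 and 812 CPM in H10 and 306, 330.4 and 321 CPM in H90. It reached 1905, 1854 and 2227 CPM in M10 and 570.4, 648 and 699.9 CPM in M90. No pool overlapped vehicle, M10 stood above all other libraries, and M90 lay just below H10. The gene was 9.35-fold above vehicle in M10 (log2 3.23, SE 0.0841, adjusted p = 4.31e-15), 3.62-fold in H10 (log2 1.86, SE 0.0804, adjusted p = 9.67e-12), 3.00-fold in M90 (log2 1.58, SE 0.0799, adjusted p = 6.08e-11) and 1.5-fold in H90 (log2 0.58, SE 0.0794, adjusted p = 5.62e-05).

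Cyp3a13, a CYP3A enzyme known from intestine, followed the same group order at a smaller scale. It had 368, 416 and 365 CPM in vehicle, 814, 799 and 821 CPM in H10 and 430.2, 464 and 452 CPM in H90. In M10 it had 1964, 1945 and 1932 CPM, and in M90 804, 775 and 695 CPM. Again M10 stood above all, and the H90 libraries lay just above the highest vehicle library. The gene was 5.08-fold above vehicle in M10 (log2 2.35, SE 0.0506, adjusted p = 4.28e-30), 2.12-fold in H10 (log2 1.08, SE 0.0490, adjusted p = 4.63e-20), 1.98-fold in M90 (log2 0.98, SE 0.0489, adjusted p = 4.57e-19) and 1.17-fold in H90 (log2 0.23, SE 0.0489, adjusted p = 0.000626).

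Cyp3a25, the third Cyp3a gene measured, rose by a like amount in all pools. It had 46.0, 42.1 and 45.2 CPM in vehicle, 104, 122 and 111 CPM in H10 and 95.6, 114 and 95.8 CPM in H90. It had 125, 118 and 133 CPM in M10 and 114, 146 and 144 CPM in M90. Every treated library held at least 95.6 CPM, and neighbouring pools overlapped one another. The rises were 2.53-fold in H10 (log2 1.34, SE 0.0857, adjusted p = 1.19e-13), 2.30-fold in H90 (log2 1.2, SE 0.0863, adjusted p = 9.80e-12), 2.83-fold in M10 (log2 1.5, SE 0.0854, adjusted p = 3.21e-15) and 3.04-fold in M90 (log2 1.60, SE 0.0855, adjusted p = 1.52e-15).

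These Cyp3a genes have near copies, which limits how their counts can be read. Of the 50-base stretches of Cyp3a25 transcripts 26.8% also occur in other genes, 25.2% in Cyp3a59, and for Cyp3a11 the share was 6.73%, while Cyp3a13 shares none. Cyp3a59 had means of 0.535 to 1.56 CPM and Cyp3a44 of 0.0713 to 1.52 CPM. Both rose in M10 (log2 1.56, adjusted p = 0.0175, and log2 4.10, adjusted p = 9.56e-05). Cyp3a44 also rose in H10 (log2 3.69, adjusted p = 0.000593) and M90 (log2 2.51, adjusted p = 0.0200), but not in H90 (log2 2.07, adjusted p = 0.129).

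Cyp2b10, the P450 gene best known as a CAR target, fell in all 4 pools. It had 322, 289.5 and 322 CPM in vehicle, 178, 190.2 and 221 CPM in H10 and 209.7, 206 and 225 CPM in H90. It had 191, 160.3 and 234 CPM in M10 and 172, 181 and 159.7 CPM in M90. All treated libraries lay below all vehicle libraries, and the pools overlapped one another except M90, which lay below H90. Vehicle was 1.58-fold above H10 (log2 change -0.66, SE 0.122, adjusted p = 0.000706), 1.46-fold above H90 (-0.54, SE 0.122, adjusted p = 0.00768), 1.60-fold above M10 (-0.68, SE 0.121, adjusted p = 0.000402) and 1.82-fold above M90 (-0.86, SE 0.122, adjusted p = 7.93e-05). The summed level of the 28 hepatocyte markers was also highest in vehicle, at 1434 to 1578 CPM, against 873 to 1044 CPM in H10, 854 to 1151 CPM in H90, 713 to 800.0 CPM in M10 and 659.8 to 684 CPM in M90. Marker by marker this did not hold in H10, where of 27 tested 1 was higher, 2 were lower and 24 did not pass (median log2 0.20). In H90 also few passed: 0 were higher (1 at an unadjusted p under 0.05 and 1 by DESeq2), 2 were lower and 25 did not pass (median log2 -0.40). In M10 3 were higher and 18 lower, and in M90 3 and 17. So 11.1, 7.41, 77.8 and 74.1% changed in H10, H90, M10 and M90, beside 48.5, 21.6, 64.5 and 54.7% of all tested genes. Most of that sum is Cps1 and Cyp2c29, which intestine also expresses. Alb, the defining liver transcript, had 86.5 to 111 CPM in vehicle and 94.8 to 139 CPM in H10, and 27 of the 28 markers were detected in every pool, Ass1 being at 0 there. Their part in the fall of Cyp2b10 was not tested.

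Cyp2c55, a P450 of the gut that oxidises fatty acids and a known PXR and CAR target, rose in H10, H90 and M10 and did not pass in M90. It had 964, 895 and 923 CPM in vehicle, 1271, 1423 and 1381 CPM in H10 and 1003, 1117 and 1040.0 CPM in H90. It had 1096, 1118 and 1166 CPM in M10 and 972, 907 and 939.7 CPM in M90. H10 was highest, H90 and M10 lay above vehicle by a small margin, and M90 overlapped vehicle. The gene was 1.46-fold higher in H10 (log2 0.55, SE 0.0455, adjusted p = 7.13e-13), 1.14-fold in H90 (log2 0.18, SE 0.0455, adjusted p = 0.00281) and 1.21-fold in M10 (log2 0.28, SE 0.0455, adjusted p = 1.37e-06). In M90 the log2 difference was 0.02 (95% interval -0.07 to 0.11, adjusted p = 0.753), and it turned to -0.13 (adjusted p = 0.0110) with library size as the only scaling. In M10 the call was lost with that scaling (log2 0.02, adjusted p = 0.755) and with library set as a term (log2 0.18), which depends on H90 a. In H90 it was lost without H90 b (log2 0.14, adjusted p = 0.0507).

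The carboxylesterases hydrolyse ester drugs and lipids in the endoplasmic reticulum, and both measured members of the Ces2 cluster rose. Ces2a had 882, 818 and 892 CPM in vehicle, 2065, 2154 and 2261 CPM in H10 and 1574, 1629.5 and 1741 CPM in H90. It had 2507, 2399 and 2495 CPM in M10 and 1666, 1578 and 1572 CPM in M90. The 90% pools overlapped each other and lay between vehicle and the 10% pools. Ces2a was 2.5-fold above vehicle in H10 (log2 1.32, SE 0.0441, adjusted p = 2.79e-24), 1.91-fold in H90 (log2 0.93, SE 0.0438, adjusted p = 5.71e-19), 2.86-fold in M10 (log2 1.51, SE 0.0443, adjusted p = 1.05e-26) and 1.86-fold in M90 (log2 0.89, SE 0.0438, adjusted p = 1.66e-19).

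Ces2c had 312, 326 and 324 CPM in vehicle, 599.7, 601 and 615 CPM in H10 and 333, 373 and 352 CPM in H90. It had 804, 807 and 733 CPM in M10 and 425, 425 and 408 CPM in M90. H90 lay barely above vehicle and M10 above all other libraries. The rises were 1.89-fold in H10 (log2 0.92, adjusted p = 4.22e-19), 2.44-fold in M10 (log2 1.29, adjusted p = 4.81e-24), 1.31-fold in M90 (log2 0.39, adjusted p = 3.62e-09) and 1.10-fold in H90 (log2 0.14, adjusted p = 0.0265). The H90 call of Ces2c was lost without vehicle a (log2 0.12, adjusted p = 0.119), H90 b (log2 0.09, adjusted p = 0.217) or H90 c (log2 0.14, adjusted p = 0.0517), and with library size as the only scaling (log2 0.10, adjusted p = 0.0967). Of the 50-base stretches of Ces2c 36.1% also occur in other genes, 32.7% in the pseudogene Ces2d-ps, which had means of only 1.79 to 2.75 CPM. For Ces2a the share was 17.3%, 16.3% in the predicted gene Gm7208.

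Abcb1a encodes P-glycoprotein, the pump that returns drugs to the gut lumen, and it rose in all pools. It had 1249, 1169.7 and 1153 CPM in vehicle, 2239, 2509 and 2281 CPM in H10 and 1640.1, 1731 and 1595 CPM in H90. It had 2422, 2528 and 2597 CPM in M10 and 1945, 2039 and 2196 CPM in M90. Vehicle was lowest, then H90 and M90, and the 10% pools were highest and overlapped each other. The rises were 1.97-fold in H10 (log2 0.98, SE 0.0471, adjusted p = 5.92e-19), 1.39-fold in H90 (log2 0.48, SE 0.0469, adjusted p = 6.35e-10), 2.11-fold in M10 (log2 1.08, SE 0.0472, adjusted p = 1.09e-20) and 1.73-fold in M90 (log2 0.79, SE 0.0470, adjusted p = 1.5e-16). Its near copy Abcb1b, in which 16.3% of the 50-base stretches of Abcb1a also occur, had means of 0.305 to 0.511 CPM and passed in no pool (log2 -0.38, -0.20, 0.28 and -0.0018).

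Levels of different genes were compared per exon length, as RPKM (CPM divided by kilobases). In vehicle the order of the means was Cyp2c55 (465), Ces2a (366), Abcb1a (217), Cyp2b10 (147), Ces2c (139), Cyp3a13 (130), Cyp3a11 (41.9), Nr1i2 (37.3), Cyp3a25 (21.3) and Nr1i3 (5.81 RPKM). In M10 Ces2a (1046) and Cyp3a13 (659) led, Cyp3a11 had risen to 392 and Cyp2b10 had fallen to 92.3 RPKM. Lengths are exon unions of GENCODE vM21, which may not be the annotation of the counting, and for Cyp3a11 (5093 bases, longest transcript 2802) and Nr1i3 (4414 bases, longest transcript 2980) the union lowers the RPKM.

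The comparison of 90% with 10% pools asks what the share of 12HBA did within a species model. With more 12HBA the xenobiotic genes were lower or did not pass, and 0 were higher by edgeR, also at an unadjusted p under 0.05 and by DESeq2. In H90 minus H10, 7 of 10 genes were lower (Nr1i2, Cyp3a11, Cyp3a13, Cyp2c55, Ces2a, Ces2c and Abcb1a), where 36.6% of all tested genes changed, 18.2% higher and 18.4% lower. In M90 minus M10 the 6 target genes among these were lower, where 41.2% of all tested genes changed, 21.3% higher and 20% lower. The median log2 difference of the 10 genes was -0.38 and -0.28, beside 0.008 and 0.04 for all tested genes. All 7 and all 6 had ranges that did not overlap, a trait not counted over all tested genes.

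Cyp3a11 differed most: H10 was 2.42-fold above H90 (log2 difference of 90% minus 10% -1.27, SE 0.0790, adjusted p = 2.64e-09) and M10 3.12-fold above M90 (-1.64, SE 0.0786, adjusted p = 7.34e-11). For Cyp3a13 H10 was 1.81-fold above H90 (-0.86, SE 0.0489, adjusted p = 2.60e-16) and M10 2.57-fold above M90 (-1.36, SE 0.0489, adjusted p = 5.70e-22). Ces2c differed by -0.78 (adjusted p = 3.16e-16) and -0.90 (adjusted p = 3.49e-18) on the log2 scale, and Ces2a by -0.39 (adjusted p = 2.73e-09) and -0.62 (adjusted p = 2.22e-14). Abcb1a differed by -0.50 (adjusted p = 8.49e-11) and -0.29 (adjusted p = 4.31e-06), and Cyp2c55 by -0.37 (adjusted p = 2.77e-08) and -0.26 (adjusted p = 1.10e-05). The receptor gene Nr1i2 was lower in H90 than in H10 (-0.29, SE 0.0544, adjusted p = 3.51e-05), whereas in M90 minus M10 it stood at 0.08 (95% interval -0.03 to 0.18, adjusted p = 0.268) with ranges that did not overlap. That difference passed with upper-quartile scaling (0.16, adjusted p = 0.0130) and with library size as the only scaling (0.19, adjusted p = 0.00340). Cyp3a25 did not pass in either model (-0.14, 95% interval -0.31 to 0.03, and 0.10, -0.06 to 0.27), nor did Cyp2b10 (0.12, -0.15 to 0.39, and -0.19, -0.46 to 0.08). Single libraries decided some of these: Cyp3a25 passed in the human model without H90 b (-0.23, adjusted p = 0.0361) and in the mouse model without M90 a (0.21, adjusted p = 0.0242). Cyp2b10 passed in the mouse model without M10 b (-0.31, adjusted p = 0.0100), and Nr1i3 in the human model without H90 a (0.34, adjusted p = 0.0276).

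**Figure D3:**
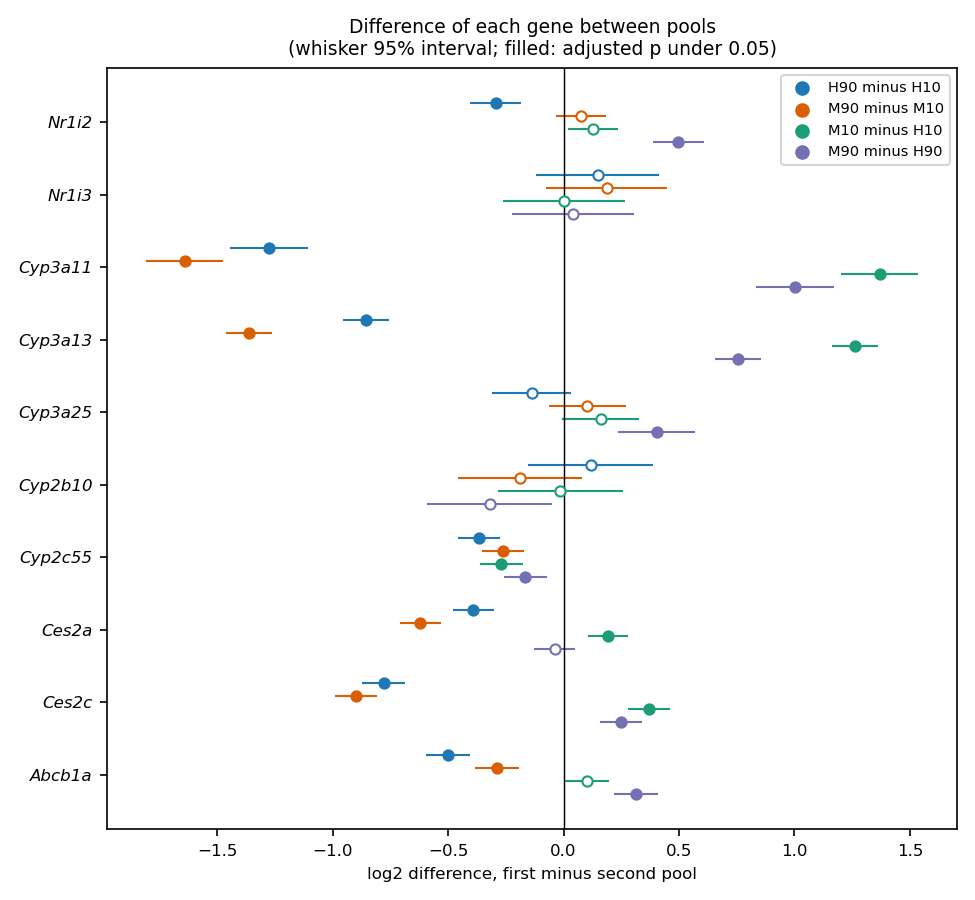
The log2 difference of each gene between pools (horizontal axis, first minus second pool), with 95% intervals and filled points for adjusted p under 0.05. Blue and red points, 90% minus 10% 12HBA, lie left of 0 for Cyp3a11, Cyp3a13, Ces2a, Ces2c, Abcb1a and Cyp2c55, and green and purple points, mouse minus human model, reach 1.37 and 1.0 for Cyp3a11.

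The comparison of species models at the same 12HBA share asks how the mouse mixture differed from the human one. All H10 libraries lie in set 1 and all M10 libraries in set 2, so at 10% mixture and library set cannot be told apart. At 90% only H90 a lies in set 1, so the comparison is mixed with library set in part. At 10%, 4 of the 10 genes were higher in M10 than in H10 (Cyp3a11, Cyp3a13, Ces2a and Ces2c) and Cyp2c55 was lower, where 36.3% of all tested genes changed, 18.2% higher and 18.1% lower. At 90%, 6 were higher in M90 than in H90 (Nr1i2, Cyp3a11, Cyp3a13, Cyp3a25, Ces2c and Abcb1a) and Cyp2c55 was again lower, where 38.8% changed, 19.2% higher and 19.5% lower. The median log2 differences of the 10 genes were 0.14 and 0.28, and those of all tested genes -0.02 and -0.01. Ranges were apart for all 5 genes at 10% and for 6 of 7 at 90%, the exception being Cyp3a25, again without a count over all tested genes.

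Cyp3a11 was 2.58-fold higher in M10 than in H10 (log2 1.37, SE 0.0780, adjusted p = 9.72e-10) and 2.00-fold higher in M90 than in H90 (log2 1.0, SE 0.0787, adjusted p = 4.13e-08). Cyp3a13 was 2.40-fold (log2 1.26, SE 0.0487, adjusted p = 4.39e-21) and 1.69-fold higher (log2 0.76, SE 0.0488, adjusted p = 3.97e-15). Ces2c was higher by 0.37 (adjusted p = 2.23e-08) and 0.25 (adjusted p = 2.91e-05) on the log2 scale. Ces2a was higher by 0.19 at 10% (adjusted p = 0.000517), a call lost with library size as the only scaling (0.06, adjusted p = 0.272). It was also lost with library set as a term (0.09), which depends on H90 a. At 90% Ces2a differed by -0.04 (95% interval -0.13 to 0.05). Cyp2c55 was lower by a log2 of -0.27 (adjusted p = 9.09e-06) and -0.16 (adjusted p = 0.00359), and the second call was lost without H90 b (-0.12, adjusted p = 0.0592).

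Nr1i2 was 1.41-fold higher in M90 than in H90 (log2 0.50, SE 0.0542, adjusted p = 1.47e-09) but did not pass in M10 minus H10 (log2 0.13, 95% interval 0.02 to 0.24, adjusted p = 0.0594), where it passed with RLE scaling (0.14, adjusted p = 0.0364), limma-voom (0.13, adjusted p = 0.0421) and DESeq2 (0.14, adjusted p = 0.0255). Abcb1a was 1.24-fold higher in M90 than in H90 (log2 0.32, adjusted p = 1.05e-06) and did not pass at 10% (log2 0.10, 95% interval 0.008 to 0.20, adjusted p = 0.0847), though it did without H10 b (0.15, adjusted p = 0.0180). Cyp3a25 was 1.32-fold higher in M90 than in H90 (log2 0.40, adjusted p = 0.000233) and did not pass at 10% (log2 0.16, 95% interval -0.007 to 0.33). Cyp2b10 passed in neither, with a log2 of -0.01 (95% interval -0.28 to 0.26) at 10% and -0.32 (-0.59 to -0.05, adjusted p = 0.0617) at 90%. The second value passed with the replicate block (-0.32, adjusted p = 0.0395), DESeq2 (-0.31, adjusted p = 0.0383) and 6 further settings.

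Whether the effect of the 12HBA share differed between the species models was tested as M90 minus M10 less H90 minus H10. Of the 10 genes 5 passed, 2 with a positive and 3 with a negative value, where 14.8% of all tested genes passed, 7.85% positive and 6.92% negative. The median over the 10 genes was -0.04 on the log2 scale and over all tested genes 0.007. The value was 0.37 for Nr1i2 (SE 0.0761, adjusted p = 0.000579) and 0.21 for Abcb1a (SE 0.0660, adjusted p = 0.0246). Nr1i2 did not pass in M90 minus M10 itself, and Abcb1a fell less in the mouse model. It was -0.51 for Cyp3a13 (SE 0.0684, adjusted p = 1.14e-06), -0.37 for Cyp3a11 (SE 0.109, adjusted p = 0.0346) and -0.23 for Ces2a (SE 0.0612, adjusted p = 0.00803), which fell more in the mouse model. With library set as a term, where H90 a alone stands for H90, fewer passed, and the values of Nr1i2 and Cyp3a13 were 0.45 and -0.45. Without H10 b or H90 c 3 passed, without Cyp3a11 and Abcb1a. The Cyp3a11 call was lost without H10 a (-0.31), H10 b (-0.38), H90 b (-0.34), H90 c (-0.36) or M90 b (-0.38), with adjusted p from 0.0600 to 0.0979. That of Abcb1a was lost without H10 b (0.17), H90 c (0.19), M10 a (0.19) or M90 c (0.17), with adjusted p from 0.0581 to 0.104. Cyp3a25 passed without H90 b (0.34, adjusted p = 0.0447) or M90 a (0.35, adjusted p = 0.0165), and Cyp2b10 without M10 b (-0.43, adjusted p = 0.0234).

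The receptor gene and its targets did not share one order of groups. M90 had the highest Nr1i2, at 190.3 ± 4.18 CPM (SD, n = 3) against 181 ± 4.37 in M10, 165 ± 1.57 in H10, 135 ± 8.32 in H90 and 95.1 ± 5.49 in vehicle. Cyp3a11 in M90, at 639 ± 65.2 CPM, stood below H10 at 772 ± 50.4 and far below M10 at 1995 ± 202. Cyp3a25 had its highest mean in M90, at 135 ± 17.9 CPM, as Nr1i2 had, though M90 minus M10 passed for neither. As a measure of likeness, the root mean square difference between 2 genes over the 15 libraries was taken on log2 CPM minus the vehicle mean. From Nr1i2 it was 0.162 to Abcb1a, 0.363 to Ces2c, 0.410 to Ces2a, 0.546 to Cyp3a25, 0.560 to Cyp2c55, 0.664 to Cyp3a13, 0.724 to Nr1i3, 1.16 to Cyp3a11 and 1.37 to Cyp2b10. It reflects the size of the changes as well as the order of groups. All values share libraries and the vehicle mean, and none was tested.

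**Figure D4:**
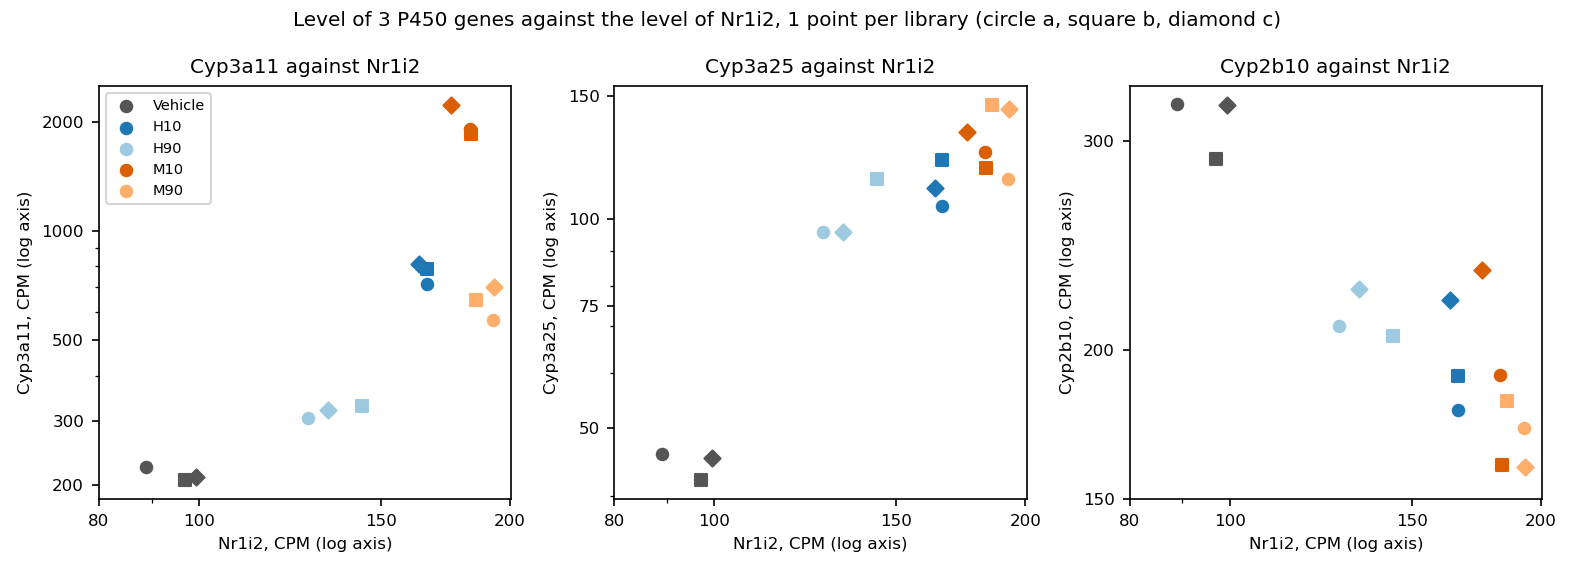
Level of Cyp3a11, Cyp3a25 and Cyp2b10 (vertical, CPM, log axis) against that of Nr1i2 (horizontal, CPM, log axis), 1 point per library. M10 and M90 have similar Nr1i2, 176 to 183 and 186 to 193 CPM, but Cyp3a11 of 1854 to 2227 and 570.4 to 699.9 CPM, while Cyp3a25 overlaps between them.

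Outside the 10 genes, the closest of 11033 others by that measure were Wdtc1 (0.0778), Dvl1 (0.0825) and Rmdn3 (0.0932) for Nr1i2, whose median distance to all was 0.799. For Cyp3a11 they were 2010003K11Rik (0.171), Dusp10 (0.211) and Cidec (0.269), with a median of 1.85, and for Cyp3a13 Plk3 (0.151), Cldn4 (0.154) and Maff (0.169), with a median of 1.28. Ptprn (0.129), Tnfsf15 (0.157) and Cck (0.157) were closest to Cyp3a25, with a median of 1.30, and Cobll1 (0.125), Unc5cl (0.138) and Ints5 (0.142) to Cyp2b10, with a median of 0.695. Mep1a (0.0799), Agpat9 (0.0920) and Nostrin (0.0980) were closest to Abcb1a, and Slc30a1 (0.184), Slc25a33 (0.205) and Mfsd2a (0.207) to Ces2a. Galnt3 (0.0991), Antxr2 (0.112) and Sec24d (0.131) were closest to Ces2c, and Rars (0.0829), Mgat4a (0.114) and Sars (0.115) to Cyp2c55. For Nr1i3 they were Grcc10 (0.127), Pick1 (0.128) and Myeov2 (0.130).

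Of 18 tested receptor partners and regulators 7, 3, 7 and 8 were higher and 3, 4, 5 and 5 lower in H10, H90, M10 and M90, with median log2 changes of 0.06, 0.05, 0.01 and -0.07. That is 55.6, 38.9, 66.7 and 72.2% changed, beside 48.5, 21.6, 64.5 and 54.7% of all tested genes, so in H10 and M10 the share is near that of all genes. Rxra, the shared dimer partner, fell in all pools (log2 -0.28, -0.15, -0.42 and -0.31). Nr0b2, the corepressor SHP, had 0.285 ± 0.326 CPM in vehicle and 11.6 to 23.7 CPM in H10, M10 and M90 (means), with 6.34 CPM in H90, and rose in all pools (log2 5.60, 4.74, 5.93 and 6.63). Hsp90ab1, a chaperone that holds CAR in the cytoplasm, fell in all (log2 -0.63, -0.21, -0.93 and -0.62), as did Ncoa1, a coactivator (log2 -0.42, -0.53, -0.85 and -0.68). Ppp1r16a, a regulatory subunit of a protein phosphatase, rose in all (log2 0.64, 0.43, 1.2 and 1.03). Nr1h4, the bile acid receptor FXR, rose in H10, M10 and M90 (log2 0.52, 0.62 and 0.45) and stood at 0.07 in H90.

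VDR and its targets were listed because VDR is known to act on Cyp3a genes too, and their part in the Cyp3a changes was not tested. Vdr rose in H90 (log2 0.15), M10 (0.19) and M90 (0.52) and stood at 0.07 in H10, and its M10 value turned to -0.07 (adjusted p = 0.104) with library size as the only scaling. Of 4 tested vitamin D targets 3, 2, 3 and 3 rose in H10, H90, M10 and M90, and 0 fell by edgeR, also at an unadjusted p under 0.05 and by DESeq2. That is 75, 50, 75 and 75% changed, beside 48.5, 21.6, 64.5 and 54.7% of all tested genes. The shares in H90 and M90 include a gene near the floor, with at most 17 counts in any library of vehicle, H90 or M90. Cyp24a1, the enzyme that inactivates vitamin D, had 2, 5 and 9 counts in the vehicle libraries, 11, 14 and 9 in H90 and 13, 17 and 7 in M90, but 3583 to 4835 counts in H10 and 10050 to 13040 in M10. In CPM that is 0.225 ± 0.143 in vehicle, 199 ± 20.1 and 493 ± 22.3 in H10 and M10, and 0.651 ± 0.190 and 0.564 ± 0.233 in H90 and M90 (SD, n = 3), with log2 changes of 9.73 and 11.03 in the 10% pools and 1.39 and 1.26 in the 90% pools. S100g, an intestinal calcium binding protein, rose by log2 4.06, 1.51, 4.63 and 2.78, and Atp2b1, a calcium pump, by 1.10, 1.73 and 0.41 in H10, M10 and M90, with 0.12 in H90. Between the 10% pools Cyp24a1 was higher in M10 (log2 1.31, adjusted p = 6.29e-16).

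Proteins that serve the P450 enzymes rose with them in part. Of 11 tested, 7, 4, 7 and 5 were higher and 3, 1, 4 and 4 lower in H10, H90, M10 and M90, with median log2 changes of 0.31, 0.01, 0.34 and 0.30. In H10, H90 and M90 90.9, 45.5 and 81.8% of them changed, beside 48.5, 21.6 and 54.7% of all tested genes. In M10 11 of 11 did, beside 64.5% of all tested genes. Por, the reductase that passes electrons to all microsomal P450s, had 321 ± 11.8 CPM in vehicle, 889.9 ± 15.6 and 613 ± 31.9 in H10 and H90, and 1297 ± 4.58 and 1060.4 ± 20.8 in M10 and M90 (SD, n = 3). It rose in each pool (log2 1.47, 0.93, 2.01 and 1.72). Alas1, the first enzyme of haem synthesis, rose by 0.67, 0.25, 1.11 and 0.60, and like Cyp3a11 it was lower with 90% than with 10% 12HBA in both models (log2 -0.42, adjusted p = 6.31e-07, and -0.51, adjusted p = 6.63e-09). Hmox1, which degrades haem, rose in H10 (0.57) and M10 (1.44), and Ppox, a late enzyme of haem synthesis, rose in H10, M10 and M90 (0.43, 0.67 and 0.77).

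The conjugation and related enzymes known as PXR or CAR targets were mostly higher. Their list also holds enzymes that do not conjugate, such as reductases and dehydrogenases. Of 26 tested, 18, 14, 17 and 17 rose and 1, 0, 5 and 1 fell in H10, H90, M10 and M90, with median log2 changes of 0.49, 0.20, 0.73 and 0.72. The shares changed were 73.1, 53.8, 84.6 and 69.2%, beside 48.5, 21.6, 64.5 and 54.7% of all tested genes. In H90 the number lower by edgeR was 1 at an unadjusted p under 0.05 and 1 with library size as the only scaling, and by DESeq2 it was 0. Akr1b7, an aldo-keto reductase, rose most among those named (log2 2.89, 2.40, 3.34 and 3.51). The glutathione transferase Gstm3 rose from 448 CPM in vehicle to 2710, 1285, 3605 and 2945 CPM (log2 2.60, 1.52, 3.01 and 2.72), and Gstm1 rose by 1.57, 0.71, 1.80 and 1.96. Ugt1a6a, a glucuronosyltransferase that shares exons with other Ugt1a genes, fell in H10, M10 and M90 (log2 -1.93, -3.61 and -1.79) and stood at -0.44 in H90.

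Among other members of the P450, esterase and transporter families some rose and some fell. Of 9 other Cyp2c genes tested 2, 2, 1 and 2 rose and 2, 3, 2 and 3 fell (median log2 0.19, -0.16, -0.23 and -0.36). So 44.4, 55.6, 33.3 and 55.6% changed, beside 48.5, 21.6, 64.5 and 54.7% of all tested genes. The share was near that of all genes in H10 and M90, above it in H90 and below it in M10. Cyp2c66 rose in all pools (0.76, 0.32, 0.50 and 0.68), Cyp2c65 in H10, H90 and M90 (0.47, 0.18 and 0.37), Cyp2c68 fell in all (-0.57, -0.28, -0.97 and -0.71), and Cyp2c29 fell in H10, H90 and M90 (-0.64, -1.0 and -0.77). Of 13 other carboxylesterases 4, 3, 3 and 5 rose and 3, 0, 7 and 4 fell (median log2 0.26, 0.11, -0.55 and 0.14). So 53.8, 23.1, 76.9 and 69.2% changed, beside 48.5, 21.6, 64.5 and 54.7% of all tested genes, which is near that share in H10 and H90. In H90 the number lower was 0 by edgeR at an unadjusted p under 0.05 and 0 by DESeq2 too. Ces1g rose in all pools (1.54, 0.95, 1.17 and 2.67) and so did Ces2b (1.5, 0.61, 1.27 and 1.09), whereas Ces1b fell in H10, M10 and M90 (-1.39, -3.46 and -1.17) and Ces3a in M10 and M90 (-1.71 and -2.02). Of 15 other drug transporters 7, 6, 9 and 8 rose and 3, 1, 3 and 3 fell (median log2 0.27, 0.17, 0.39 and 0.29). So 66.7, 46.7, 80 and 73.3% changed, beside 48.5, 21.6, 64.5 and 54.7% of all tested genes. Slco2b1, an uptake transporter, fell in all (-1.26, -0.34, -2.60 and -1.44). Slc47a1, a cation exporter, rose in all (0.85, 0.71, 1.72 and 1.77), as did Slc22a4, a carnitine and ergothioneine transporter (1.16, 0.68, 1.63 and 1.47). No other Cyp2b gene passed the filter on low counts.

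**Figure D5:**
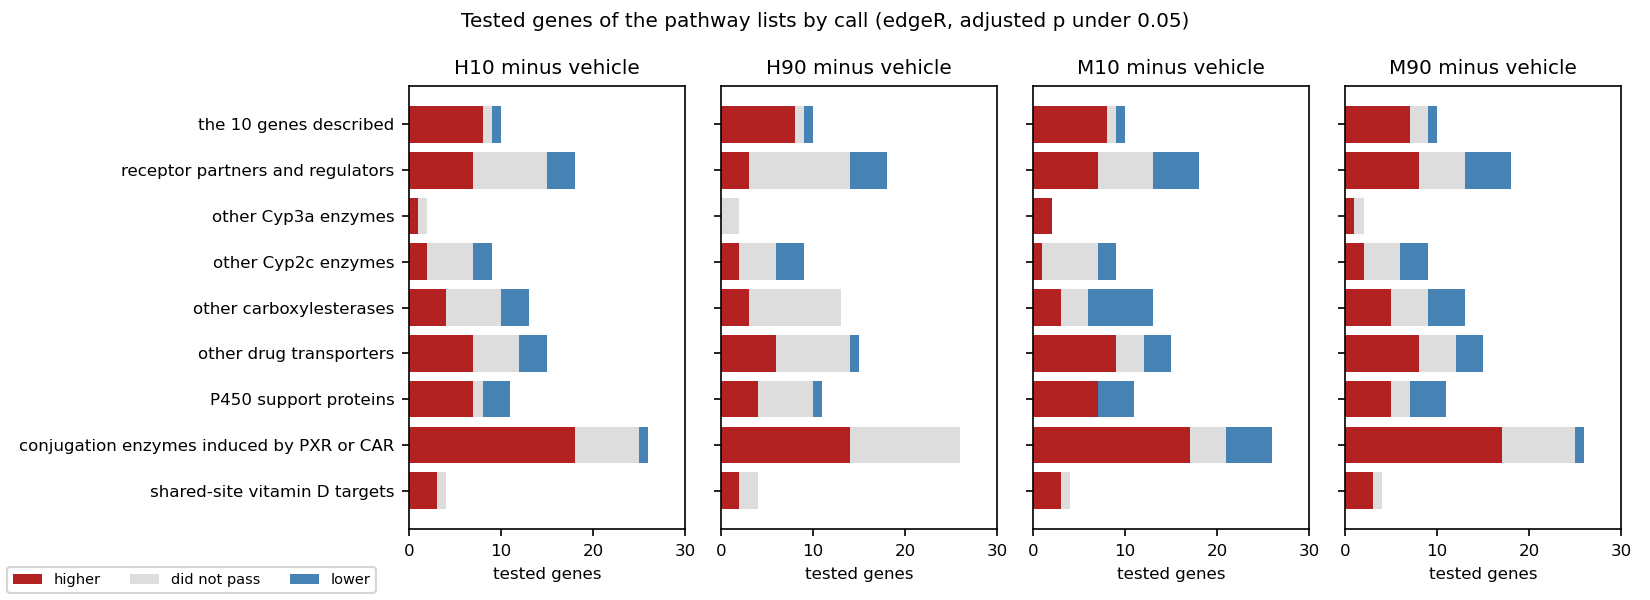
Number of tested genes (horizontal axis) that were higher, did not pass or were lower in each pool against vehicle, for the 10 genes and 8 lists of related genes. Red, higher, makes up 18, 14, 17 and 17 of the 26 conjugation and related enzymes in H10, H90, M10 and M90. Receptor partners and other carboxylesterases hold both colours.

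Cell marker sums differed between the groups, but not all in the same way. Summed enterocyte markers ran from 22990.4 to 26992 CPM in vehicle, 33142 to 33935 in H10, 23587 to 24567 in H90, 49317 to 51052 in M10 and 35610.3 to 37359 in M90. Of the 18 markers 15, 8, 17 and 14 were higher and 1, 5, 1 and 1 lower in H10, H90, M10 and M90. That is 88.9, 72.2, 100 and 83.3% changed, beside 48.5, 21.6, 64.5 and 54.7% of all tested genes. Proliferation markers (14 of 14 detected in each group) ran from 1479 to 1579.6 CPM in vehicle, 321 to 341 in H10, 994 to 1122 in H90, 137 to 145 in M10 and 311 to 334 in M90. Goblet cell markers (7 of 7 detected) ran from 1210.4 to 1236 CPM in vehicle, 3772 to 3965 in H10, 1915 to 2070.1 in H90, 7209 to 8166 in M10 and 3481 to 3834 in M90. M10, with the highest Cyp3a11 and Cyp3a13, thus had the highest enterocyte and goblet sums and the lowest proliferation sum, and H90 stood nearest vehicle in each. Enteroendocrine markers had 860.2 to 1056 CPM in vehicle and 1732 to 2359.7 CPM in the pools, without the spread between pools seen for Cyp3a11. Paneth cell markers had 74.1 to 104 CPM in vehicle and 147 to 226 in the pools, and tuft cell markers 74.2 to 81.4 and 97.7 to 145. Stem cell markers had 464 to 503 CPM in vehicle and 271 to 297 in H90. Their sums were alike in H10 (114 to 129), M10 (119 to 126) and M90 (113 to 118), though single markers differed. Of 9 tested, 2 were higher and 1 lower in M90 minus M10 (33.3% changed, beside 41.2% of all tested genes). In M10 minus H10 1 was higher and 1 lower (22.2%, beside 36.3%). In bulk RNA, fewer cells of a type and less RNA per cell cannot be told apart, and the part of these markers in the changes of the 10 genes was not tested.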

How the data were processed

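RNA was selected for poly-A and made into libraries with a TruSeq kit, per the labels' protocols. The authors deposited raw read counts per gene symbol, 1 file per library, with no normalization. Per the submitters' processing notes the tools were featureCounts 1.5.0-p3, STAR 2.5.2b and bcl2fastq 2.17, and the build was mm10 (GRCm38). Annotation, strand and multimapping settings are not given in the sources used here. A read shared by near copies or overlapping genes may therefore be lost or misplaced.

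The 13159 genes kept by filterByExpr were scaled by TMM and fitted by edgeR 4.0.16 (R 4.3.3) as 5 group means over 15 libraries, with robust quasi-likelihood F tests (two-sided), 10 residual degrees of freedom and Benjamini-Hochberg adjustment per contrast. The pipeline was also run on simulated data in which a small part of the genes changed, in H10 only. The real contrasts have far more changed genes and a split into library sets, so that run does not show how reliable the calls here are. Precision is limited by 3 libraries per group. Standard errors come from the F value.

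The genes and lists were chosen with earlier results of these data known. Cell marker lists are given by their summed levels, with Mup20, Alb and Col1a1 named for the library sets. From each other list up to 4 genes were named, those with the largest change against vehicle among genes past the threshold with a mean of at least 2 CPM, while Rxra, Por, Alas1, Abcb1b, Vdr, Cyp24a1 and Nr1h4 were named in any case. A gene that the rule picks is not reported here. Cyp3a44, Cyp3a59, Ces2d-ps, Gm7208 and Tomm40l fall outside that rule and were named because they share sequence or bases with the genes described. Rn45s, Cps1 and Ass1 were named after their values were seen. Promoters and their starts are RefSeq's. Alternatives were other scalings, filters and shrinkage, fits of a contrast's groups alone, limma-voom (limma 3.58.1), DESeq2 1.42.0, a replicate block, fits with 1 library left out and a term for library set (Mup20 above or below 10 CPM). Letters were not taken as pairs: residual profiles of libraries with a shared letter correlated at -0.0282 to 0.0793, and of other letters at -0.0582 to 0.0437.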

Additional observations from a re-analysis of the deposited data

Results flagged for a closer look

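For 5 of the 10 genes the effect of the 12HBA share differed between the mouse and the human model by the test of the difference itself, M90 minus M10 less H90 minus H10 on the log2 scale (edgeR). Nr1i2 had 0.37 (adjusted p = 0.000579): it was lower in H90 than in H10 and did not pass in M90 minus M10. Abcb1a had 0.21 (adjusted p = 0.0246), with a smaller fall in the mouse model. Cyp3a13 had -0.51 (adjusted p = 1.14e-06), Cyp3a11 -0.37 (adjusted p = 0.0346) and Ces2a -0.23 (adjusted p = 0.00803), with larger falls in the mouse model. The Cyp3a11 value did not pass with upper-quartile scaling (-0.33, adjusted p = 0.0795), library size as the only scaling (-0.35, adjusted p = 0.0853), the 4 groups of the contrast alone (-0.36, adjusted p = 0.0958) or library set as a term (-0.31). The Ces2a and Abcb1a values did not pass with library set as a term (-0.16 and 0.23). H90 is the only group with libraries of both sets, so in the fit with that term H90 a alone stands for H90.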

How the results depend on the processing

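Of 1590 alternative values for single genes, 1496 kept their direction and their side of the threshold, 29 lost and 30 gained a call and 35 changed sign, none of them in a comparison where the gene was called. With library set as a term, 5 genes instead of 9 passed in H90 minus vehicle and 2 instead of 5 in the interaction, and over all genes 1069 instead of 2840 passed in H90 minus vehicle, 3958 instead of 7199 in M90 minus vehicle and 2025 instead of 4779 in M10 minus H10. Leaving out single libraries gave 3 to 6 genes in the interaction. With that term Nr1i3 changed sign in H90 minus vehicle (-0.35), M90 minus vehicle (-0.50), H90 minus H10 (-0.29), M10 minus H10 (-0.63) and M90 minus H90 (-0.16), and Cyp2c55 in M90 minus vehicle (-0.086). Scaled by library size alone, the signs changed for Cyp2c55 (-0.13) and Nr1i3 (-0.017) in M90 minus vehicle, for Nr1i3 (-0.13), Nr1i2 (-0.0060) and Abcb1a (-0.031) in M10 minus H10 and for Nr1i3 in M90 minus H90 (-0.072). With upper-quartile scaling they changed for Cyp2c55 in M90 minus vehicle (-0.028) and Nr1i3 in M10 minus H10 (-0.068). Nr1i3 also changed sign in M10 minus H10 with no filter (-0.0012) and with its groups alone (-0.00046) and in H90 minus vehicle with limma-voom (-0.026), and Cyp2b10 in M10 minus H10 with DESeq2 (0.0017). The cause of these changes was not tested. Leaving out single libraries, Nr1i3 ran from -0.17 to 0.0061 in H10, -0.077 to 0.29 in H90 and -0.17 to 0.0085 in M10 minus vehicle. It ran from -0.020 to 0.34 in H90 minus H10, -0.040 to 0.036 in M10 minus H10, -0.16 to 0.21 in M90 minus H90 and -0.16 to 0.21 in the interaction. Cyp2c55 ran from -0.0075 to 0.051 in M90 minus vehicle, Cyp2b10 from -0.16 to 0.11 in M10 minus H10 and Ces2a from -0.069 to 0.0044 in M90 minus H90. Library size alone moved the median of all genes by over 0.1 in most comparisons (to -0.13, -0.29 and -0.17 in H10, M10 and M90 minus vehicle). Of all called genes it left 33.3, 42.5, 29.5 and 31.9% higher in H10, H90, M10 and M90 minus vehicle, where TMM gave 49.5, 54.3, 48.4 and 47.9%. It gave 66.9% in H90 minus H10 and 69.7% in M90 minus M10 (TMM 49.8 and 51.6%), and 25.1% in M10 minus H10 and 30.1% in M90 minus H90 (TMM 50.1 and 49.6%). Upper-quartile scaling gave 65.4% in M90 minus M10 and 35.5% in M10 minus H10. A block for the replicate letters raised the count in M90 minus H90 from 7 to 8 (Cyp2b10, -0.32, adjusted p = 0.0395) and changed no other call of the 10 genes; the highest correlation of libraries with a shared letter was 0.0793, and no pair passed 0.1.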
